A study of Mus musculus with 6 samples.

Results

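The transcript levels of star pyramid neurons from layer 4 of mouse visual cortex were described over all 6 exon arrays of the series (Affymetrix Mouse Exon 1.0 ST), which is every array it holds. Genes were ranked by the mean of their 6 log2 array values, which left 14859 named genes from 23331 measured transcript clusters. Of these arrays, 3 came from the deprived and 3 from the non-deprived hemisphere of mice at postnatal day 14. All mice carried the m-Citrin label and all had tetrodotoxin, a sodium channel blocker, injected at P12 to P13 and again at P13 to P14 for monocular deprivation, so no array here came from an uninjected animal. Dissociated fluorescent neurons were collected by hand with a glass pipette, and their RNA, 0.3 to 1 ng per sample, went through 2 rounds of amplification. Whether each sample came from an animal of its own, how many cells it held and which promoter drives m-Citrin are not in the labels, so the spread between arrays given below may be partly technical. The titles number the arrays 1 to 3 in each hemisphere, with the letter r for deprived and l for non-deprived, and do not say whether equal numbers share an animal. The SDs below treat the 6 arrays as separate samples, which ignores any pairing of hemispheres within an animal. The hemispheres were pooled throughout and were not compared.

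Star pyramid neurons are the glutamatergic cells of layer 4 that receive thalamic input and keep a thin apical dendrite, which sets them apart from spiny stellate cells of the same layer. As excitatory cortical neurons they load vesicles through the transporter Slc17a7 (VGLUT1), and layer 4 cells are known for the nuclear receptor Rorb. At the age sampled, shortly after eye opening, cortical neurons are still forming and refining synapses.

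Non-deprived arrays 2 and 3 differed from the remaining 4 in overall signal. Their upper quartiles over the named genes were 6.43 and 6.55 on the log2 scale, against 7.08 for non-deprived array 1 and 7.01 to 7.15 for the 3 deprived arrays. Their mean correlations across genes with the other arrays were 0.863 and 0.886, against 0.906 to 0.916 for the other 4, with genes being no independent replicates. Each result that rests on these arrays is given with them below, and the main ones without them as well.

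A log2 array value is a summary over the probes of a transcript cluster. It carries no factor for transcript length, but probes differ in how strongly they respond, so a rank between genes is a rank of array signal and not of transcript copies. The annotation also limits the top of the ranking. Of the 100 brightest clusters, 35 had exactly 1 gene symbol, 1 had several and 64 had no entry and were unnamed here. The brightest cluster of all averaged 13.4, against 12.8 for the brightest named gene. Common neuronal genes without a cluster of their own symbol, among them Gapdh, Tuba1a, Hspa8 and Grin1, were not analysed here.

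The promoters of 3 genes show the ends of the ranking and are given for the 250 bases before the transcription start, from RefSeq (build GRCm38.p6), with each CG dinucleotide in capitals. Selenow (chr7:15922372-15922621, minus strand) encodes a small selenoprotein and had the highest level of the named genes. Nrsn1 (chr13:25269997-25270246, minus strand) encodes neurensin, a vesicle membrane protein of neurons, and had the lowest spread of the 40 highest genes. Olfr27 (chr9:39127917-39128166, plus strand), an olfactory receptor, had the lowest level of all.
Selenow: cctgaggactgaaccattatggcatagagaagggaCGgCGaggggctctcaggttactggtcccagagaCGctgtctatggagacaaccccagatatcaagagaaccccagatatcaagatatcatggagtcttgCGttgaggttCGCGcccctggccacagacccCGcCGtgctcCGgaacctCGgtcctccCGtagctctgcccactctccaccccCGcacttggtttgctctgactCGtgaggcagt
Nrsn1: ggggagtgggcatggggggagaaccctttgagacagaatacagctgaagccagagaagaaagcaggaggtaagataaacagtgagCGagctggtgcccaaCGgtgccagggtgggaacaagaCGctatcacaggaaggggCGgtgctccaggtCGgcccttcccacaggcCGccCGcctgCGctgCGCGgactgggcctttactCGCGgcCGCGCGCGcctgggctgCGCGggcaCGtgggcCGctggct
Olfr27: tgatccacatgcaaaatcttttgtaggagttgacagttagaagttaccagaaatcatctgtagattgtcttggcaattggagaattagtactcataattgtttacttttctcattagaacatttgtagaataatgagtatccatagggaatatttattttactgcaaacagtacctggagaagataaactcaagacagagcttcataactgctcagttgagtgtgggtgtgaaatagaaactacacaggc
The promoters of Selenow and Nrsn1 hold 13 and 20 CG dinucleotides in 250 bases, and that of Olfr27 holds 0. Their G and C contents are 58.4%, 66.4% and 35.2%, in the same order of genes.

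Selenow was at 12.51, 12.99 and 12.93 on the deprived arrays and at 12.89, 12.64 and 12.86 on the non-deprived arrays (12.80 ± 0.19, mean ± SD, n = 6). Olfr27 was at 1.01, 1.02 and 1.15 on the deprived and 1.24, 0.87 and 1.78 on the non-deprived arrays (1.18 ± 0.32). The 2 genes bound the named levels, which had a median of 5.63. To read the lower part of this range, the 95th percentile of the 718 measured olfactory receptor genes was taken on each array, since these odorant receptors of the nose have no known role in most cortical neurons. This level lay between 5.39 and 5.76 on the 6 arrays and is a reference, not a detection limit.

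Of the named genes, 4721 (31.8%) were above the olfactory receptor level on all 6 arrays, 5395 (36.3%) were above it on no array, and the other 4743 on some. Counts of list members given below are to be read against these shares. The count per array was 8068, 7715 and 7877 on the deprived arrays and 8192, 5794 and 6593 on the non-deprived arrays, so non-deprived array 2 had the fewest. Without non-deprived arrays 2 and 3, 6537 genes were above the level on all remaining arrays. A stricter level, the 99th percentile of the olfactory receptors, left 2655 genes on all 6. Of the olfactory receptors themselves, 10 of 718 were above the level on every array, the highest of them Olfr1410 at 7.26 ± 0.42.

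**Figure D1:**
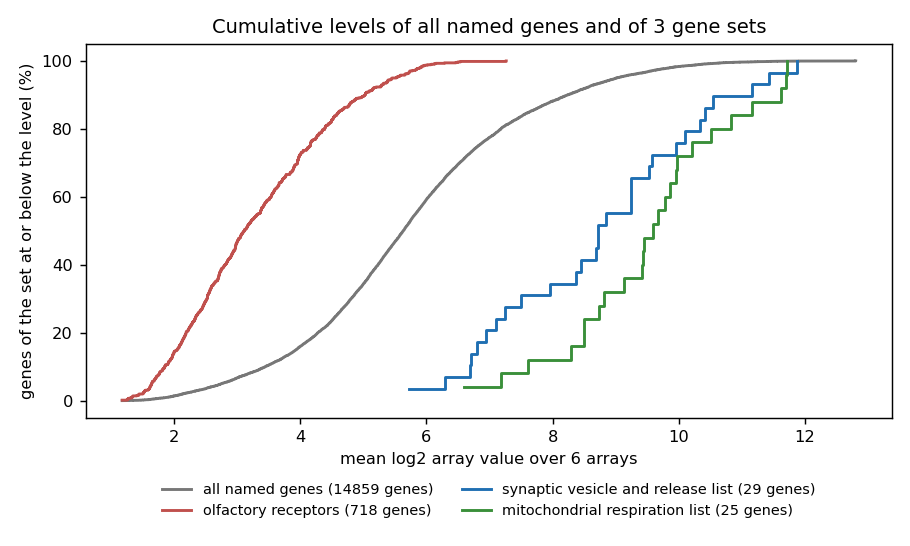
Cumulative distribution of the mean log2 array value over 6 arrays (x axis) for all 14859 named genes, the 718 olfactory receptors, 29 synaptic vesicle and release genes and 25 mitochondrial respiration genes, with the percent of each set at or below a level on the y axis. The olfactory receptors lie furthest left and the mitochondrial and synaptic vesicle genes furthest right.

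The defining markers of layer 4 excitatory neurons were mostly in the upper part of the range. All 6 had a cluster of their own symbol, and 5 of them were above the olfactory receptor level on all 6 arrays, against 31.8% of all named genes. The median of their percentiles among the named genes was 84.6, and between 83.7 and 85.5 when any 1 array was left out. Nell2, a secreted neuronal protein with epidermal growth factor repeats, was at 10.62, 10.71 and 10.81 on the deprived arrays and at 10.43, 9.88 and 9.70 on the non-deprived arrays. Slc17a7, the vesicular glutamate transporter, was at 9.92, 10.20 and 10.35 on the deprived and 9.44, 8.92 and 9.04 on the non-deprived arrays. Both were high on every array, with means of 10.36 ± 0.46 and 9.64 ± 0.60.

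Rorb, the nuclear receptor that marks layer 4, was at 8.41, 8.14 and 7.77 on the deprived arrays and at 7.70, 8.57 and 6.83 on the non-deprived arrays (7.90 ± 0.63). The homeobox factors of upper layers followed, Cux1 at 7.33 ± 0.56 and Cux2 at 6.56 ± 0.27. Slc17a6 (VGLUT2), a transporter more typical of thalamic neurons, was the lowest and most variable marker, at 6.31, 7.69 and 6.98 on the deprived and 6.0, 4.46 and 5.51 on the non-deprived arrays. It was above the olfactory receptor level on 4 arrays, and its values, with an SD of 1.13, overlapped those of Cux2.

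Of 10 further layer 4 genes, 7 were above the olfactory receptor level on all 6 arrays. The highest was Kcnh5, an ether-a-go-go potassium channel, at 10.10 ± 0.43, which was also the highest of the 72 potassium channel genes. The LIM-domain regulators Lmo4 (8.76 ± 0.36) and Lmo3 (8.56 ± 0.55) and the chromatin protein Tox (8.42 ± 0.79) followed. Scnn1a, whose promoter drives a widely used layer 4 Cre line, was at 5.65 ± 0.23, close to the median of all genes. Hsd11b1 and Endou, at 4.64 and 4.70, were above the level on no array.

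Of 11 genes of general excitatory cortical neurons, 6 were above the olfactory receptor level on all 6 arrays, 3 on some and 2 on none. Mef2c, a transcription factor that regulates synapse number, led them at 11.04 ± 0.18, followed by the calmodulin-binding protein Nrgn at 9.75 ± 0.39 and the kinase subunits Camk2a at 9.40 ± 0.39 and Camk2b at 9.32 ± 0.21. The factors Neurod2 (5.19 ± 0.30) and Emx2 (4.39 ± 0.26) were above the level on no array, and Neurod6, Lhx2 and Neurod1 on 4 or 5. Of 9 layer 5 genes 3 were above the level on all 6 arrays and 4 on none, and of 10 layer 6 and subplate genes 3 and 6. Of all named genes 31.8% were above it on all 6 arrays and 36.3% on none, so the shares on all 6 lie near that of all genes.

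Among layer 5 and 6 genes the calmodulin regulator Pcp4 (9.79 ± 0.54) and the T-box factor Tbr1 (8.31 ± 0.96) were high. Fezf2, the master regulator of subcerebral projection neurons, was at 5.19 ± 0.22, and the layer 6 genes Ntsr1 and Foxp2 were at 4.95 ± 0.08 and 4.65 ± 0.29, all 3 above the level on no array. Calb1, a calcium buffer of upper layer neurons, was at 9.96, 10.40 and 9.95 on the deprived arrays and at 10.23, 6.50 and 10.10 on the non-deprived arrays. It was high on 5 arrays and much lower on non-deprived array 2.

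**Figure D2:**
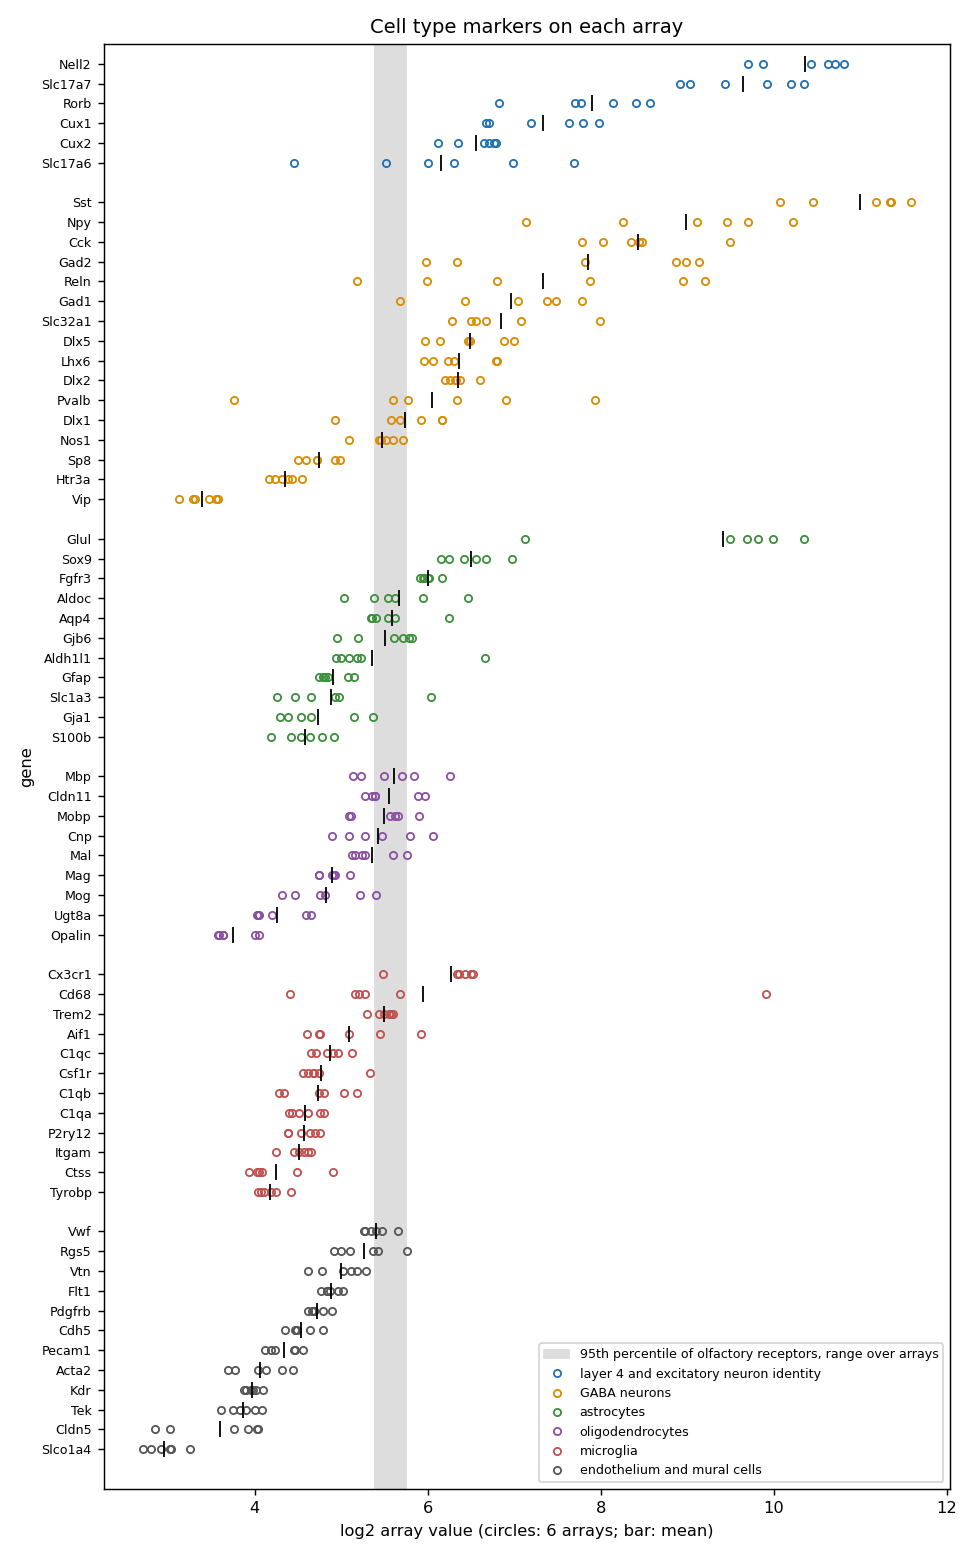
Log2 array value (x axis) of the measured markers of 6 cell types (y axis), with circles for the 6 arrays, a short bar for the mean and a grey band over the range of the olfactory receptor level. Nell2 and Slc17a7 lie right of the band on every array, Sst lies between 10.08 and 11.59, and all endothelial and oligodendrocyte means lie left of or within the band.

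Markers of GABA neurons were also measured in these arrays, and some were among the highest genes. The peptide gene Sst, which defines a class of inhibitory interneurons, was at 10.08, 11.59 and 11.18 on the deprived and at 11.36, 11.34 and 10.46 on the non-deprived arrays. Its mean of 11.00 ± 0.60 placed it 48th among the 14859 genes, above Slc17a7 on each array. Of the 16 measured genes of this list, 8 were above the olfactory receptor level on all 6 arrays and 3 (Vip, Htr3a and Sp8) on none.

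Genes for making and loading GABA lay lower than Sst. Gad2, a GABA-synthesizing enzyme, was at 8.87, 7.81 and 9.13 on the deprived arrays and at 8.99, 5.98 and 6.34 on the non-deprived arrays. Gad1 averaged 6.97 ± 0.78 and the vesicular GABA transporter Slc32a1 6.85 ± 0.62. Gad2 and Gad1 were lowest on non-deprived arrays 2 and 3, while Slc32a1 was not.

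Other interneuron genes ran from high to low levels. Nxph1, a neurexin ligand, averaged 9.99 ± 0.58, the peptide genes Npy and Cort 8.98 ± 1.12 and 8.56 ± 1.44. Lhx6, a factor of the medial ganglionic eminence lineage, averaged 6.36 ± 0.36, Dlx5 6.49 ± 0.40, Dlx2 6.35 ± 0.14, Pvalb 6.05 ± 1.41, Dlx1 5.74 ± 0.47 and Nos1 5.47 ± 0.21. Nxph1 and Cort are not on the GABA neuron list, and the others are. Vip was at 3.39 ± 0.17, at the percentile 9.50 of all named genes. Summed on the linear scale, the GABA neuron list was at 2806, 5397 and 5685 on the deprived and at 5402, 4517 and 3377 on the non-deprived arrays, all in array signal. Sst weighs most in this sum, which did not follow Gad2. The sum was lowest on deprived array 1, where Gad2 was at 8.87, and higher on non-deprived array 2, where Gad2 was at 5.98. In such pooled cells, more cells of a type and more RNA per cell cannot be told apart, and the part of interneuron RNA in any level given here was not tested.

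Genes of vessels and microglia were mostly low, and those of other glia lay closer to the middle of the range. Of 12 endothelial and mural genes 0 were above the olfactory receptor level on all 6 arrays and 11 on none, and Cldn5, the tight-junction protein of brain vessels, was at 3.60 ± 0.53. Of 9 oligodendrocyte genes 0 were above it on all 6 and 4 on none, with the myelin gene Mbp highest at 5.61 ± 0.42. Of 6 oligodendrocyte precursor genes 1 was above it on all 6 and 1 on none. Of 11 astrocyte genes 3 were above it on all 6, the glutamine synthetase Glul (9.41 ± 1.16), Sox9 (6.50 ± 0.30) and Fgfr3 (6.0 ± 0.09). The filament gene Gfap was at 4.90 ± 0.17 and on no array above it. The astrocyte shares on all 6 arrays and on none were both 27.3%, not far from the 31.8% and 36.3% of all named genes.

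Of 12 microglial genes only the chemokine receptor Cx3cr1 was above the level on all 6 arrays, and 8 were on none. Cd68, a lysosomal protein of phagocytes, was at 5.68, 4.41 and 5.17 on the deprived arrays and at 5.27, 9.92 and 5.20 on the non-deprived arrays, so its high value stood on non-deprived array 2 alone. The summed linear signal of the microglial list was 1320 on that array, against 367 to 418 on the other 5, and the excess is mainly Cd68 itself. The median of the list was 4.77 on that array, within the 4.59 to 4.83 of the other 5. Of the blood genes only Alas2 was measured, at 4.98 ± 0.44.

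The highest named genes included genes of energy supply, the vesicle cycle, the cytoskeleton and protein turnover. The 100 highest of the 14859 genes held 4 of the 27 measured complex I subunits, 3 of the 10 cytochrome c oxidase subunits and 3 of the 7 ATP synthase subunits. They also held 4 of the 29 heterotrimeric G protein subunits and 4 of the 59 protein phosphatase subunits, which are larger families. After Selenow came a transcript known only by the provisional symbol AY036118 (12.40 ± 0.37), the glycolytic enzyme Aldoa (12.39 ± 0.36), the neuronal calcium sensor Vsnl1 (11.95 ± 0.13), the neurite outgrowth protein Nrep (11.90 ± 0.35), the membrane glycoprotein Gpm6a (11.89 ± 0.21) and the SNARE protein Snap25 (11.87 ± 0.16). The chromatin-associated Morf4l2 (11.78 ± 0.21), the tubulin Tubb2a (11.74 ± 0.52) and the mitochondrial genes Atp5b (11.72 ± 0.23), Ndufb3 (11.70 ± 0.42) and Cox6a1 (11.62 ± 0.61) completed the next places. All 100 highest genes were above the olfactory receptor level on all 6 arrays, where 31.8% of named genes were.

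Within this upper end the SDs are often as large as the steps between neighbours. Snap25 was at 11.94, 11.88 and 11.93 on the deprived and at 11.77, 11.61 and 12.07 on the non-deprived arrays, and Gpm6a, next above it, at 11.97, 11.98 and 11.81 on the deprived and 11.63, 11.71 and 12.22 on the non-deprived arrays. The values of these neighbours overlap, so their order does not exceed the spread. Of the 100 highest genes by mean, 41 were in the highest 100 of every array, and 209 genes entered the highest 100 of at least 1 array. Of the highest 20 the count in every array was 5, and of the highest 1000 it was 449.

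Mitochondrial respiration stood near the top as a group. Of its 25 measured genes 24 were above the olfactory receptor level on all 6 arrays, and their median percentile was 97.2. Among families defined by symbol, the 7 ATP synthase subunits had a median percentile of 98.8 and the 27 complex I subunits 93.4, with Ndufb11 the lowest complex I gene at 5.36. The 10 cytochrome c oxidase subunits ran from Cox6a1 at 11.62 to Cox7b2, a testis form, at 1.90. The 68 mitochondrial ribosomal proteins were lower, at a median percentile of 76.9.

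Glycolysis was less even, with 7 of 14 genes above the level on all 6 arrays. Aldoa, at 12.02, 12.38 and 13.00 on the deprived and 12.45, 12.03 and 12.46 on the non-deprived arrays, and Ldhb, a lactate dehydrogenase subunit, at 10.54 ± 0.29, were high on every array. Aldoc, the aldolase typical of astrocytes, was at 5.66 ± 0.49. Pkm is counted among the 14, but its cluster number lies among those of chromosome 5 and the gene on chromosome 9. Its value may not measure Pkm and is not read here beyond that count. Ion pumps that restore gradients after firing were high, with Atp1b1 (sodium pump) at 11.45 ± 0.30, Atp2a2 (endoplasmic reticulum calcium pump) at 11.23 ± 0.19 and Atp2b2 (plasma membrane calcium pump) at 10.14 ± 0.37. The muscle pump Atp2a1 was at 5.04 ± 0.13.

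**Figure D3:**
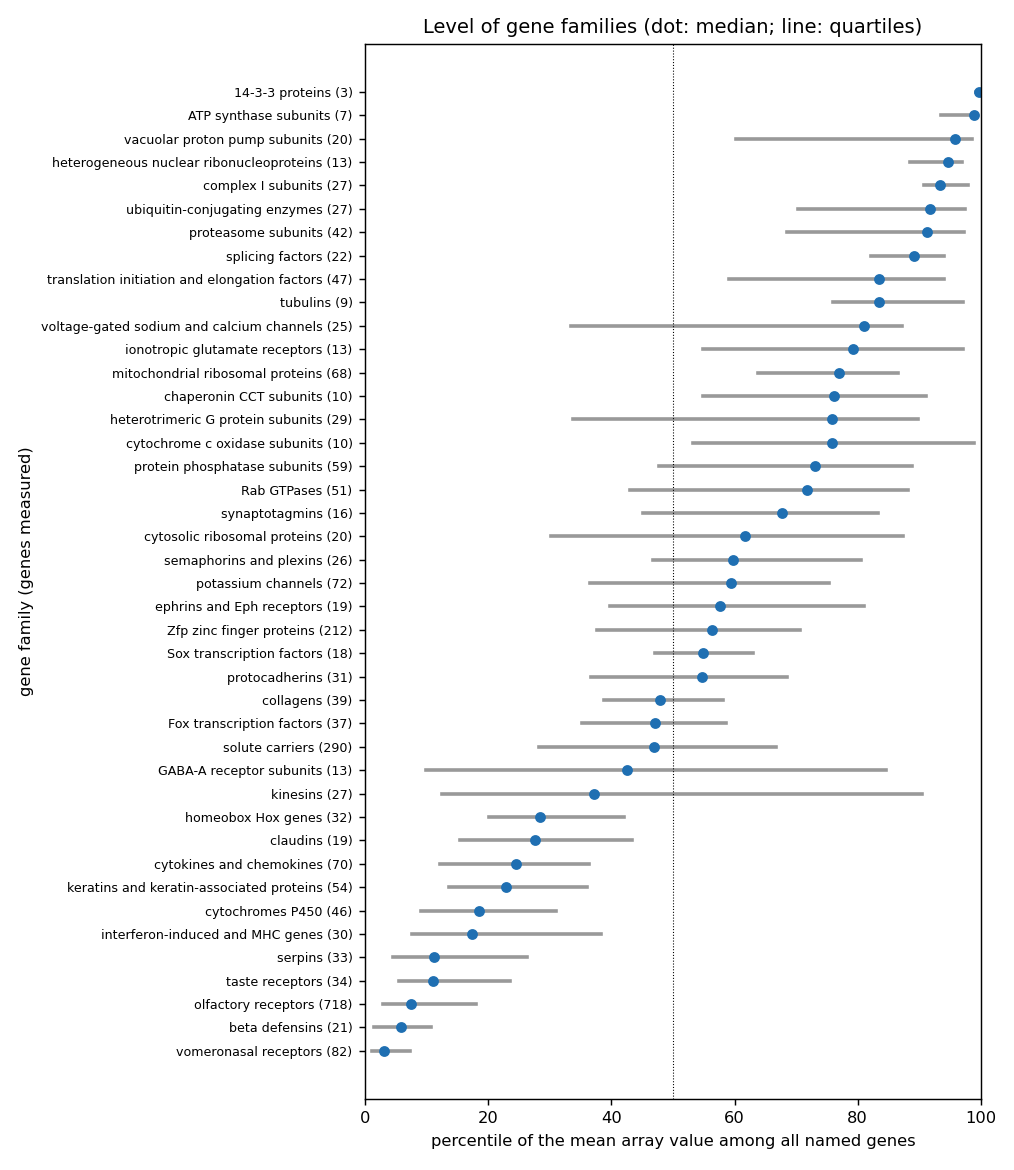
Percentile of the mean level among all 14859 named genes, for gene families ordered by their median percentile, with points at the median and bars over the middle range from the lower to the upper quartile of the family. The 14-3-3 proteins and ATP synthase subunits are highest, at medians of 99.7 and 98.8, and the beta defensins and vomeronasal receptors lowest, at 5.75 and 3.13.

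Proteins that bind or turn over other proteins were also high. All 3 measured 14-3-3 genes, adaptors of phosphorylated proteins, were at or above 10.23, with Ywhae at 11.56 ± 0.32. Of 14 ubiquitin and proteasome genes 12 were above the olfactory receptor level on all 6 arrays, led by Psmc5 at 10.96 ± 0.30, with Psma3 low at 4.57 ± 0.97. Of 14 chaperones 11 were, led by Canx at 10.70 ± 0.16 and Hspa5 (BiP) at 10.35 ± 0.37. Hsp90aa1, a cytosolic chaperone abundant in most cells, was listed at 3.50 ± 0.31.

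RNA-binding proteins of neurons formed another high group, with 16 of 17 above the level on all 6 arrays. Matr3 (10.66 ± 0.15), Celf1 (10.33 ± 0.41) and Celf2 (9.94 ± 0.19) were highest. The splicing regulator Ptbp2, which neurons express in place of Ptbp1, was at 9.30 ± 0.49, against 6.19 ± 0.53 for Ptbp1, and their values did not overlap on any pair of arrays. Cytosolic ribosomal proteins had few clusters of their own, 20 in all, with Rps9 highest at 10.74 ± 0.34. Of these 5 (25%) were above the level on all 6 arrays, against 31.8% of all named genes. The cluster numbers of Rpl31 and Rps24 lie among those of another chromosome than the gene, so their values may not measure these genes.

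Genes of the presynaptic terminal were high as a group. Of 29 measured vesicle and release genes 24 were above the olfactory receptor level on all 6 arrays and 0 on none, with a median percentile of 93.3. The calcium sensor Syt1 was at 11.44, 11.63 and 11.43 on the deprived and at 11.37, 11.32 and 11.43 on the non-deprived arrays (11.44 ± 0.10), a tight range for so high a level. The SNARE protein Vamp2 averaged 11.16 ± 0.25, synaptophysin (Syp) 10.54 ± 0.38, the fusion ATPase Nsf 10.42 ± 0.24 and complexin 1 (Cplx1) 9.95 ± 0.32. The calcium sensor of fast inhibitory synapses, Syt2, was lowest at 5.73 ± 0.43.

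Genes of the postsynaptic density were as high, with 19 of 21 above the level on all 6 arrays and a median percentile of 92.9. The calcineurin subunit Ppp3ca (11.23 ± 0.10) and the scaffold proteins Dlg2 (10.62 ± 0.09) and Dlg4 (PSD-95, 10.01 ± 0.46) led the list. Shank3 (6.13 ± 0.26) and Homer2 (5.83 ± 0.43) ended it. Adhesion molecules were spread more widely, from Cntn1 at 10.61 ± 0.26 to Epha3 at 4.58 ± 0.64, with 21 of 30 above the level on all 6.

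All 4 AMPA receptor subunits, which carry fast excitation, were above the level on all 6 arrays. Gria2, which makes the channel impermeable to calcium, was at 10.69, 10.94 and 10.58 on the deprived and at 10.67, 10.82 and 10.41 on the non-deprived arrays (10.68 ± 0.18). Gria1 averaged 10.08 ± 0.75, Gria3 9.72 ± 0.49 and Gria4 9.32 ± 0.80, and neighbours in this order overlapped. The auxiliary subunit Cacng2 (stargazin) was at 10.45 ± 0.48.

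Of the NMDA receptor genes, Grin2b was at 10.77, 10.16 and 10.21 on the deprived and at 10.45, 6.95 and 8.89 on the non-deprived arrays. It was low on non-deprived arrays 2 and 3, and its mean was 9.57 ± 1.43. Grin2a, which follows it in development, averaged 8.63 ± 0.64, and Grin2c and Grin2d were at 5.49 ± 0.10 and 6.06 ± 0.26. The values of Grin2b and Grin2a overlapped.

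Of 13 GABA-A receptor subunits 5 (38.5%) were above the level on all 6 arrays and 6 (46.2%) on none, shares not far from the 31.8% and 36.3% of all named genes. Gabrb2 was highest at 10.93 ± 0.59, followed by Gabra3 at 9.33 ± 0.31 and Gabra4 at 8.81 ± 0.34. Gabra6, the subunit of cerebellar granule cells, was at 2.66 ± 0.25, and the rho subunits Gabrr1 and Gabrr2, known from retina, at 4.13 ± 0.11 and 4.33 ± 0.21. The chloride exporter Slc12a5 (KCC2), which mature neurons express, averaged 8.25 ± 1.46, and the importer Slc12a2 (NKCC1) 6.99 ± 0.43.

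Of 10 listed sodium channel alpha subunits 7 were measured, and 3 had no cluster of their own symbol and were not analysed. Scn1a (9.19 ± 0.49), Scn8a (7.66 ± 0.84) and Scn3a (7.25 ± 1.47) were the highest of the 7. Scn2a is not among the 7, so a higher sodium channel gene may be missing here. Scn7a, Scn9a, Scn10a and Scn11a, known from sensory neurons and other peripheral cells, were at 2.91 to 4.05 and above the level on no array. Among calcium channel alpha-1 subunits Cacna1e (R-type) was highest at 8.62 ± 0.96, below the auxiliary subunit Cacnb4 at 9.47, and the retinal Cacna1f and muscle Cacna1s lowest at 4.64 ± 0.08 and 4.58 ± 0.09. Potassium channels besides Kcnh5 were led by Kcnd2 (A-type current) at 9.16 ± 0.53 and Kcnma1 (BK) at 9.02 ± 0.27.

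Activity-regulated genes were at middle to high levels, with 12 of 21 (57.1%) above the level on all 6 arrays, against 31.8% of all named genes. The granin Scg2 was highest at 9.93 ± 0.16, and Egr1, an immediate-early factor, was at 7.65 ± 0.16. Npas4, another such factor, was at 8.17, 9.13 and 8.55 on the deprived and at 6.20, 5.67 and 9.56 on the non-deprived arrays. It varied far more than Egr1 over the same arrays, with an SD of 1.59. Bdnf was at 5.36 ± 0.18 and above the level on 1 array. Of 22 neuromodulator receptors 6 (27.3%) were above it on all 6 arrays and 6 (27.3%) on none. These shares are not far from the 31.8% and 36.3% of all named genes. The muscarinic receptor Chrm1 was the highest of them at 8.07 ± 1.15.

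Genes of immature neurons were partly high, with 6 of 13 above the level on all 6 arrays. Gap43, a growth cone protein, averaged 10.66 ± 0.33 and doublecortin (Dcx), a microtubule protein of young neurons, 8.71 ± 0.20. Cell cycle genes lay at the low end, Mki67 at 3.34 ± 0.43 and Top2a at 2.76 ± 0.14. Of 12 progenitor and cell cycle genes 2 were above the level on all 6 arrays.

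Of the 10 lowest genes, 8 were olfactory receptors, 1 was the vomeronasal receptor Vmn1r200 (1.30 ± 0.14) and 1 was Tmed11 (1.31 ± 0.21), and all 10 means lay between 1.18 and 1.34. The lowest decile of 1487 genes held 418 of the 718 olfactory, 67 of the 82 vomeronasal and 16 of the 34 taste receptors, and most of its genes were of other families. By median percentile the lowest families were the vomeronasal receptors (3.13), beta defensins (5.75), olfactory receptors (7.47), taste receptors (11.1) and serpins (11.2), followed by interferon-induced and MHC genes (17.4), cytochromes P450 (18.5) and keratins (22.8). The serpins had 1 exception with a known neuronal role, Serpini1 (neuroserpin) at 10.04, and the P450 enzymes had Cyp46a1, the cholesterol 24-hydroxylase of neurons, at 7.89.

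Tissue-specific lists were low, with exceptions at middle levels. Of 16 germ line genes 14 and of 15 liver and pancreas genes 11 were above the olfactory receptor level on no array. The lowest germ line gene was Sycp1, of the meiotic synaptonemal complex, at 1.66 ± 0.11, and the highest was the protamine Prm2 at 5.95 ± 0.20, above the level on all 6 arrays. Of 16 lens and retina genes 4, all crystallins, were above it on all 6. Crybb2 was at 7.39, 7.26 and 7.57 on the deprived and at 7.41, 7.27 and 7.17 on the non-deprived arrays, a range of similar values on every array. Sry, the testis-determining gene, was likewise above the level on all 6 at 5.75 ± 0.21, so being above it does not by itself show that a gene was transcribed.

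The spread between arrays depended on the level. The median SD over the 6 arrays was 0.38 for all named genes, 0.37 within the groups, and 0.30 without non-deprived arrays 2 and 3. By decile of level it was 0.25, 0.24, 0.24 and 0.24 in the lowest 4 deciles, 0.29, 0.40, 0.57, 0.70 and 0.72 in the next 5, and 0.49 in the highest. Genes that were above the olfactory receptor level on 5 arrays had a median SD of 0.82, against 0.50 for those above it on all 6 and 0.22 for those above it on none. Part of this follows from the grouping, since genes above the level on only some arrays have values on both sides of it.

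**Figure D4:**
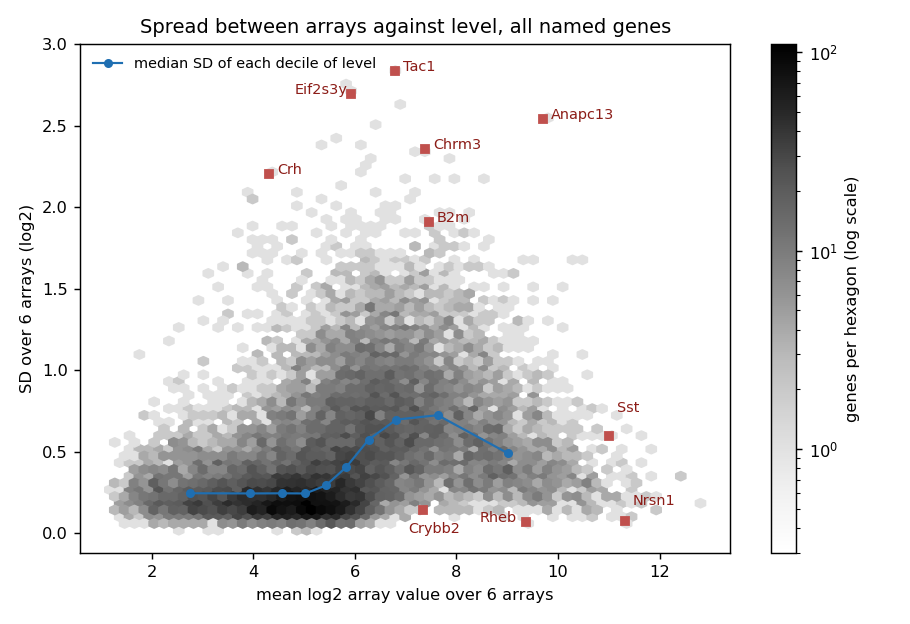
SD over the 6 arrays (y axis, log2) against the mean log2 array value (x axis) for all named genes, shaded by the number of genes per hexagon, with the median SD of each decile of level as a line. The line rises from 0.25 in the lowest decile to 0.72 in the ninth and is 0.49 in the highest, with Tac1 (2.84) the most variable gene and Rheb (0.07) and Nrsn1 (0.07) among the steadiest at high level.

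The steadiest genes were taken from those with a mean at or above the percentile 75. Rheb, the GTPase that activates mTORC1, was at 9.35, 9.40 and 9.35 on the deprived and at 9.29, 9.30 and 9.48 on the non-deprived arrays, an SD of 0.07. Nrsn1 was at 11.32, 11.21 and 11.34 on the deprived and 11.26, 11.43 and 11.33 on the non-deprived arrays. On the 2 non-deprived arrays of low overall signal, both genes lay close to their values elsewhere, which follows from their choice by low SD over the same 6 arrays. Among the next 6 by SD were Dlg2, the kinase Mapk8 (JNK1) at 7.93 ± 0.09, the active zone protein Ppfia2 at 9.34 ± 0.10 and Dnm1l, the dynamin of mitochondrial fission, at 10.35 ± 0.10.

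Also among the 20 steadiest were Syt1, Ppp3ca, the granin Chgb (11.11 ± 0.11), the GTPase Cdc42 (11.42 ± 0.11), the complex I subunit Ndufb5 (10.51 ± 0.11) and Mapk10 (JNK3, 10.59 ± 0.11). The level of Mapk10 depended on the choice of cluster and was 9.02 as the mean over its clusters. The 20 were picked for low SD, so a higher SD in other genes follows in part from that choice. Of genes often used as references, Actb was at 10.09 ± 0.54, Hprt at 9.51 ± 0.47 and Ywhaz at 11.10 ± 0.42. These SDs lie near the median of 0.49 in the highest decile of level. Tbp was at 6.66 ± 1.05 and Rplp0 at 5.92 ± 1.09, above the median SDs of 0.70 and 0.40 in their deciles.

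B2m, the light chain of MHC class I and another common reference, was at 8.46, 4.85 and 6.92 on the deprived and at 8.60, 10.001 and 5.94 on the non-deprived arrays. Its SD of 1.91 put it among the 20 most variable genes at high level. Neither group was uniformly high or low.

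The variable end included neuropeptide genes, Y-linked genes and genes that were low on a single array. Tac1, which encodes the substance P precursor, had values of 3.20, 3.25 and 7.79 on the deprived and of 9.26, 7.97 and 9.30 on the non-deprived arrays, the highest SD of all genes (2.84). It was high on 4 arrays and low on deprived arrays 1 and 2. Crh, corticotropin-releasing hormone, was at 8.77 on deprived array 1 and at 2.93 to 3.81 on the other 5. The metal-binding protein Mt2 ran from 3.02 to 10.22 with a median of 7.28.

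Eif2s3y, a Y-linked translation factor gene, was at 6.88, 8.51 and 2.33 on the deprived and at 6.76, 8.24 and 2.81 on the non-deprived arrays. It was low on array 3 of both groups and high on arrays 1 and 2 of both. Kdm5d, a Y-linked histone demethylase, was lowest on the same arrays, at 6.12, 5.97 and 4.05 on the deprived and 6.98, 5.06 and 3.85 on the non-deprived arrays. These are the same numbers in both hemispheres, and the sex of the animals is not in the labels.

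Of the 20 genes with the highest SD, 10 were lowest on non-deprived array 2 and 15 on non-deprived array 2 or 3. Of the 40 highest genes by mean, the counts were 10 and 19, and the share over all named genes was not counted. A lowest value there need not make the SD: Crh is among the 10, but its SD came from its high value on deprived array 1. Anapc13, a subunit of the anaphase-promoting complex, was at 10.69, 10.86 and 10.55 on the deprived and at 10.65, 4.53 and 10.98 on the non-deprived arrays. The muscarinic receptor Chrm3 was at 9.27, 9.79 and 7.63 on the deprived and 8.65, 4.64 and 4.33 on the non-deprived arrays. Both had low values on non-deprived array 2, and Chrm3 on non-deprived array 3 as well. Over all named genes, 36 had a single array at least 3 log2 units below the next, of which 27 were on non-deprived array 2 and 9 on non-deprived array 3, and 35 had a single array as far above, 13 of them on non-deprived array 2.

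Steadiness at middle levels was described by kind of gene. Deciles 6 to 8 hold 4456 genes with means between 5.63 and 7.18 and a median SD of 0.56. Their steadiest 1114 genes, with an SD of at most 0.32, included 17 collagen genes, structural proteins of connective tissue, and their most variable 1114 genes, with an SD of at least 0.87, included 0. The counts were 8 and 0 for olfactory receptors, 3 and 11 for mitochondrial ribosomal proteins, 20 and 31 for Zfp zinc finger proteins, and 18 and 16 for genes of the neuronal and housekeeping lists, which thus were about as frequent at both ends. The 18 collagens at these levels had a median SD of 0.09, the 10 genes of muscle, liver, lens, retina and germ line lists 0.21, and the 82 genes of the neuronal and housekeeping lists 0.51.

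Promoter composition varied with the level. Of the 14859 genes 11868 had a promoter in RefSeq, and a promoter was counted as CpG-rich where G and C made over 50% of its 250 bases and the ratio of observed to expected CG was over 0.6. CpG-rich promoters were 8.05% of the lowest decile, 49.7% of decile 5, 70.9% of decile 9 and 68.9% of the highest, against 48.6% of all. Without olfactory receptors the lowest decile had 11.3%. The median number of CG dinucleotides was 1 in the lowest decile and 18 in the highest.

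The promoter letters TATAAA on the gene's strand, 20 to 45 bases before the start, where a TATA box acts, were found in 5.96% of the lowest decile, 0.41% of decile 9 and 1.22% of the highest, against 2.59% of all. CCAAT on either strand was found in 34.1% to 37.1% of every decile. The median genomic span of the genes was 6.54 kb in the lowest decile and 30.5 kb in the highest. The lowest decile without olfactory receptors had 15.5 kb, and all named genes had 19.8 kb. Base composition moved with these features, the median G and C content being 41.2% in the lowest decile and 61.6% in the highest, and its part in them was not tested.

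The palindrome TGACGTCA, the full cyclic AMP response element bound by CREB-family factors, was searched on both strands, on which it reads the same. It was found in 4 of 1192 promoters of the lowest decile (0.34%), in 49 of 1227 of the highest (3.99%), in 7 of 81 of the 100 highest genes (8.64%) and in 2.06% of all promoters. A rise from the lowest to the highest decile was not particular to this element. All other CG-containing words searched rose as well, among them GGGCGG (11.8% to 59.7%), CCGGAAG (2.60% to 14.6%) and CACGTG (3.10% to 8.07%). The part of base composition in these rises was not tested. Of the 245 promoters with TGACGTCA, 192 (78.4%) had it within 100 bases of the start. All 7 from the highest genes are shown with 16 bases on each side and the element in capitals, on the gene's strand (RefSeq, build GRCm38.p6).
Tubb2a: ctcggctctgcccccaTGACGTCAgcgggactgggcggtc
Rnf7: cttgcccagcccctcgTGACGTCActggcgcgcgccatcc
Chgb: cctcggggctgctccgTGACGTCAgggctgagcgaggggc
Sst: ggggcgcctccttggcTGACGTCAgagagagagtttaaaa
Gpm6b: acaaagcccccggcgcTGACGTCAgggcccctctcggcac
Ppp2ca: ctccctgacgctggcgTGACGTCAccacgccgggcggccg
Rps9: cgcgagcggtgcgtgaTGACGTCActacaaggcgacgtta
These lie at chr13:34078044-34078083 (minus), chr9:96478716-96478755 (minus), chr2:132781554-132781593 (plus), chr16:23890869-23890908 (minus), chrX:166238878-166238917 (plus), chr11:52098782-52098821 (plus) and chr7:3703968-3704007 (plus), in the order shown. The element starts 59, 64, 72, 48, 49, 26 and 57 bases before the transcription start, in the same order. A tubulin, a ubiquitin ligase subunit, a granin, a neuropeptide, a membrane proteolipid, a phosphatase subunit and a ribosomal protein share it. Their mean levels were 11.74 (Tubb2a), 11.53 (Rnf7), 11.11 (Chgb), 11.00 (Sst), 10.95 (Gpm6b), 10.85 (Ppp2ca) and 10.74 (Rps9). A match of letters is a description and does not show that a factor was bound.

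**Figure D5:**
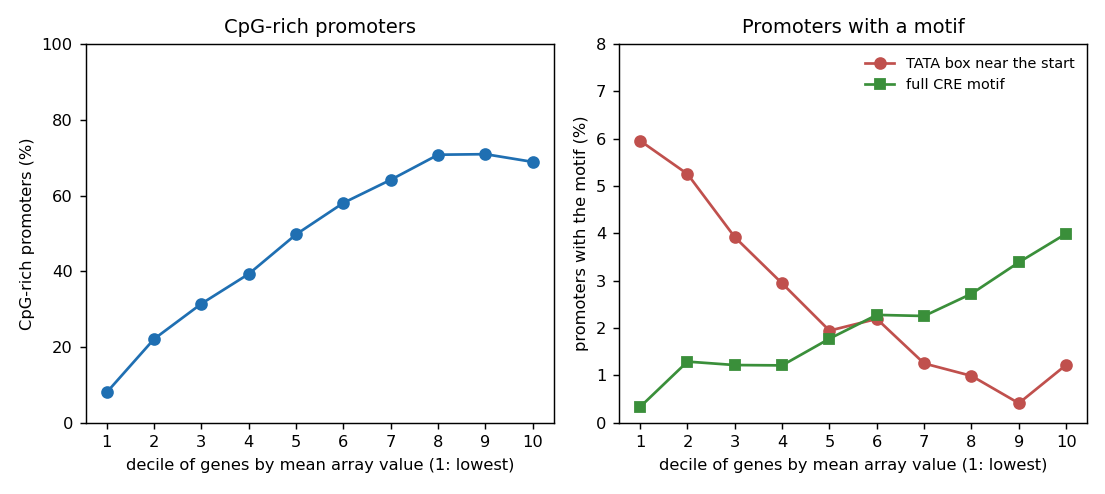
Percent of promoters (y axis) that are CpG-rich (left panel) and that hold TATAAA near the start or the cyclic AMP response element (right panel, circles and squares), by decile of level from lowest to highest (x axis). CpG-rich promoters make up 8.05% of the lowest and 68.9% of the highest decile, TATAAA 5.96% and 1.22%, and the response element 0.34% and 3.99%.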

How the data were processed

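RNA of hand-sorted star pyramid neurons was measured on 6 exon arrays, 3 per group. The authors deposited log2 values, 1 per transcript cluster and array. The log2 scale was inferred from their range of 0.584 to 13.6. The method of background correction, between-array normalization and probe summary is not given in the sources used here. Per the submitters' processing notes, the build was mm9. No further scaling was applied, and precision is limited by having 6 arrays.

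Names of clusters came from GEO's platform annotation: 14995 had 1 gene symbol, 1019 had several and 7317 had no entry. RefSeq (GRCm38.p6) held 14940 of the named clusters, and 0 symbols changed. For 135 genes with several clusters, the one with the highest mean was used. Promoters came from the first RefSeq row of a gene, and 2221 genes had several. No test between groups was made, since the arrays were described without a group comparison. The genes, the 51 gene lists (759 genes, 591 measured) and the 42 symbol families were chosen with earlier results of these data known, and the cytokine pattern was corrected once after the values were seen. The named genes were the 40 highest means without provisional symbols, the 20 lowest and 20 highest SDs among means in the upper 25% of genes, the 20 highest SDs, the 10 lowest means, members of the lists, and genes that lead or end a family. The 7 genes with TGACGTCA, Olfr1410, AY036118 and the genes named as not analysed were chosen after their values were seen. Python 3.11.15 with pandas 2.3.3 and numpy 2.4.6 was used, and the calculations were tested on simulated data. The alternatives were quantile normalization, median centring, the mean over clusters, the median of the 6 values, other reference levels, and leaving out arrays.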

Additional observations from a re-analysis of the deposited data

Results flagged for a closer look

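In 12 of 154 values examined, 103 named genes and 51 list medians, 1 array lay far from the other 5, with a gap to its nearest neighbour, as a share of the whole range, above Dixon's 95% critical value for 6 values. Chance gives about 1 in 20, and 1203 of all named genes (8.10%) passed, a share that 12 of 154 lies near. Some of the 103 genes were chosen for a high or low SD in these same values. Their gaps follow in part from that choice and are a description only. The 6 arrays pool both hemispheres, so a difference between hemispheres could also enter.

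On non-deprived array 2, Anapc13 (gap 0.933) was low at 4.53, against 10.55 to 10.98 on the other arrays. Armc10 (0.639) was at 4.45 there, against 8.28 to 10.45, and Vps25, an endosomal sorting subunit (0.687), at 4.35, against 7.93 to 9.56. Map1b, a microtubule protein of axons (0.705), was at 10.42 there, against 11.29 to 11.66. On non-deprived array 3, Tmem126b, a complex I assembly factor (0.782), was at 3.95, against 8.20 to 9.38, and Olfr203 (0.712) was at 2.39, against 0.83 to 1.28. On non-deprived array 1, Vmn1r200 (0.690) was at 1.02, against 1.28 to 1.40.

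On deprived array 1, Crh (0.850) was high at 8.77, against 2.93 to 3.81. On deprived array 2, Dnm1l (0.646) was at 10.55, against 10.27 to 10.37, a small step in a steady gene. The median of the chaperone list (0.718) was 8.01 on non-deprived array 3, against 8.96 to 9.33. The median of the muscle list (0.660) was 4.78 on that array. The blood list, which held Alas2 alone, (0.718) was at 5.85 on non-deprived array 1.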

How the results depend on the processing

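The count of genes above the olfactory receptor level on all arrays was 4721. It was 2655 with the 99th percentile of the olfactory receptors, 4848 with the 95th percentile of olfactory, vomeronasal and taste receptors together, and between 4756 and 5635 when any 1 array was left out. The median SD was 0.382, and between 0.351 and 0.379 without any 1 array. Of the 100 highest genes 41 were in the highest 100 of every array, between 41 and 47 without any 1 array and 56 without non-deprived arrays 2 and 3. The levels of 103 named genes were recomputed under 10 alternatives each, and 1029 of 1030 moved by less than 1 SD, the exception being Mapk10 as the mean over its clusters. Leaving out 1 or 2 arrays cannot move a mean of 6 values by 1 SD, and median centring leaves it unchanged. For these alternatives the outcome was fixed in advance, so the count is no measure of how stable the levels are. Of the SDs of the 103 genes, 900 of 1030 kept within their limit and 130 moved, 45 of them without non-deprived arrays 2 and 3 together. Of 561 list percentiles 543 kept within their limit and 18 moved, among them the GABA-A receptor list, at 42.6 over all arrays and 56.8 without those 2 arrays. The causes were not tested. No paired analysis was made, and every result is a description over the pooled arrays and comes from no test between groups. Over all genes, the deviations from the group means of same-numbered arrays correlated at -0.051, -0.018 and -0.0033 for numbers 1 to 3. These values cannot tell whether equal numbers share an animal, since the arrays also differ in overall signal. The Y-linked genes followed the numbers. The numbers were not treated as pairs, so the SDs may take hemispheres of the same animal as separate samples. With 6 arrays and no detection measure, levels near the olfactory receptor level are the least certain.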
